A study of Cricetulus griseus with 24 samples.

Results

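Of the 28037 genes in the count table, 10 genes that handle iron and heme were followed across Chinese hamster ovary (CHO) cell lines and growth phases. They were taken by gene symbol, without regard to case, and each symbol matched a row of the table: Tfrc, Slc11a2, Slc40a1, Fth1, Ncoa4, Ireb2, Aco1, Alas1, Fech and Blvra. All 10 passed the filter on low counts in every comparison.

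Animal cells take up iron bound to transferrin through the transferrin receptor (Tfrc), move ferrous iron across membranes with the transporter DMT1 (Slc11a2), export it through ferroportin (Slc40a1), store it in ferritin, whose heavy chain is Fth1, and recover it when Ncoa4 delivers ferritin to lysosomes. When iron is scarce, the iron regulatory proteins encoded by Aco1 and Ireb2 bind elements in messenger RNAs, which stabilizes the Tfrc transcript and holds back translation of the ferritin transcript, so that the amount of ferritin protein is not read from its RNA. Heme synthesis starts with an aminolevulinate synthase (Alas1) and ends when ferrochelatase (Fech) inserts iron, and after heme oxygenase has opened the heme ring, biliverdin reductase (Blvra) turns the product into bilirubin.

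RNA was sequenced from 3 CHO lines at exponential and at stationary phase. A0 is an antibody-producing line of the DG44 host; it was made with a plasmid carrying the heavy chain gene and another carrying the light chain and neomycin resistance genes, and was selected with G418. A1 is its progeny after amplification with rising methotrexate. CHO-S is a different CHO line, whose sample titles carry the mark NDST. A0 and A1 grew in serum-free medium with hydrolysate, insulin and chelated ferric citrate as the iron source; the medium of CHO-S is not given in the sources used here. Each group is a single line, so a difference between lines cannot be told apart from a difference between the clones drawn from them. A0 had 4 cultures at each phase, and A1 and CHO-S had 3 each. At exponential phase each A0 culture had 2 libraries, the second titled RLT for cultures 1 and 2 and Duplicate for cultures 3 and 4, and their counts were summed to 1 sample.

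Counts on genes per culture ranged from 23065838 to 26584337 in exponential A0, from 10727892 to 12913264 in stationary A0, from 11823294 to 13060749 in exponential A1, from 6532373 to 12140773 in stationary A1 and from 12449462 to 14652646 in exponential CHO-S. Stationary CHO-S culture 1 stands apart, with 1038026 counts against 14290792 and 7516854 in cultures 2 and 3. In that library 32.8% of the reads fell outside genes, against at most 18.4% in the other 23 libraries. Called results on stationary CHO-S, and values and orders that change with it, are therefore given with and without it. Levels below are counts scaled to library size (CPM) after TMM normalization over all 20 cultures. They compare samples for a gene, not genes with each other, since they are not divided by transcript length. A gene was called at an adjusted p under 0.05 (edgeR).

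The A0 results below are given separately for cultures 1 and 2 and for cultures 3 and 4, whose second libraries carry different titles, where a call depends on them. Of 9 erythroid marker genes, 6 were in the table, and their summed level stayed between 0.915 and 2.20 CPM in every culture, with Ahsp the most abundant.

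Ferritin heavy chain was higher at stationary phase in all 3 lines. In A0, Fth1 was at 5648, 5747, 5337 and 3779 CPM at exponential phase and at 11544, 11610, 10713 and 10377 CPM at stationary phase. In A1 it was at 4125, 4108 and 4635 CPM and then at 7982, 9009 and 9352 CPM. In CHO-S it was at 4682, 4210 and 4183 CPM and then at 10478, 10350 and 10291 CPM. Every stationary culture of each line lay above every exponential culture of all 3 lines, and the shallow CHO-S library lay with its neighbours. The log2 fold change was 1.10 ± 0.13 (SE, edgeR adjusted p = 4.31e-06) in A0, 1.05 ± 0.05 (adjusted p = 1.53e-15) in A1 and 1.26 ± 0.09 (adjusted p = 0.0019) in CHO-S, which are rises of 2.14, 2.07 and 2.39 times. Without the shallow library the CHO-S value was 1.25 (edgeR adjusted p = 1.86e-49), and without exponential CHO-S culture 2 it was 1.24 and not called (adjusted p = 0.0512). No difference in this rise between lines was called, with interaction values of -0.08 for A1 less A0 (edgeR adjusted p = 0.85), -0.16 for A0 less CHO-S (adjusted p = 0.68, or -0.10 without the shallow library) and -0.21 for A1 less CHO-S (adjusted p = 0.29). The last of these was called without the shallow library (-0.21, edgeR adjusted p = 0.0217).

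At stationary phase Fth1 was lower in A1 than in A0, without overlap, by a log2 fold change of -0.34 ± 0.07 (SE, edgeR adjusted p = 0.00187). The value was -0.42 against A0 cultures 1 and 2 alone and -0.27 against cultures 3 and 4 alone, and was called in each case (edgeR adjusted p = 2.79e-06 and 0.00409). At exponential phase the value was -0.26 and not called (edgeR adjusted p = 0.16). A0 culture 4, at 3779 CPM, was the lowest of all 20 cultures, and without it the exponential value was -0.38 and called (edgeR adjusted p = 0.0028). It was also called against A0 cultures 1 and 2 alone (-0.42, edgeR adjusted p = 0.0014) but not against cultures 3 and 4 (-0.09). Its 2 libraries gave 3952 and 3806 CPM, each scaled to its own total. Without that culture, exponential A0 was also called higher than exponential CHO-S (0.36, edgeR adjusted p = 0.000889), against 0.25 (adjusted p = 0.13) with it, and so were A0 cultures 1 and 2 alone (0.39, adjusted p = 0.000392). In the order of group means, exponential A1 (4289 ± 300 CPM, SD, n = 3), exponential CHO-S (4359 ± 281 CPM, n = 3) and exponential A0 (5128 ± 916 CPM, n = 4) overlapped as neighbours, followed without overlap by stationary A1 (8781 ± 713 CPM, n = 3) and then by stationary CHO-S (10373 ± 96.0 CPM, n = 3) and stationary A0 (11061 ± 612 CPM, n = 4), which overlapped each other. The overlap of stationary CHO-S with stationary A0 rests on the shallow library. Stationary CHO-S cultures 2 and 3 (mean 10320 CPM, at most 10350 CPM) lay below every stationary A0 culture. Stationary A1 against stationary CHO-S was -0.26 and not called (edgeR adjusted p = 0.0951), and -0.26 and called without the shallow library (adjusted p = 0.000141). The light chain gene Ftl had 0 to 12 counts in a culture, with reads that align to more than 1 place not counted, so its level is uncertain and only the heavy chain is described.

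**Figure D1:**
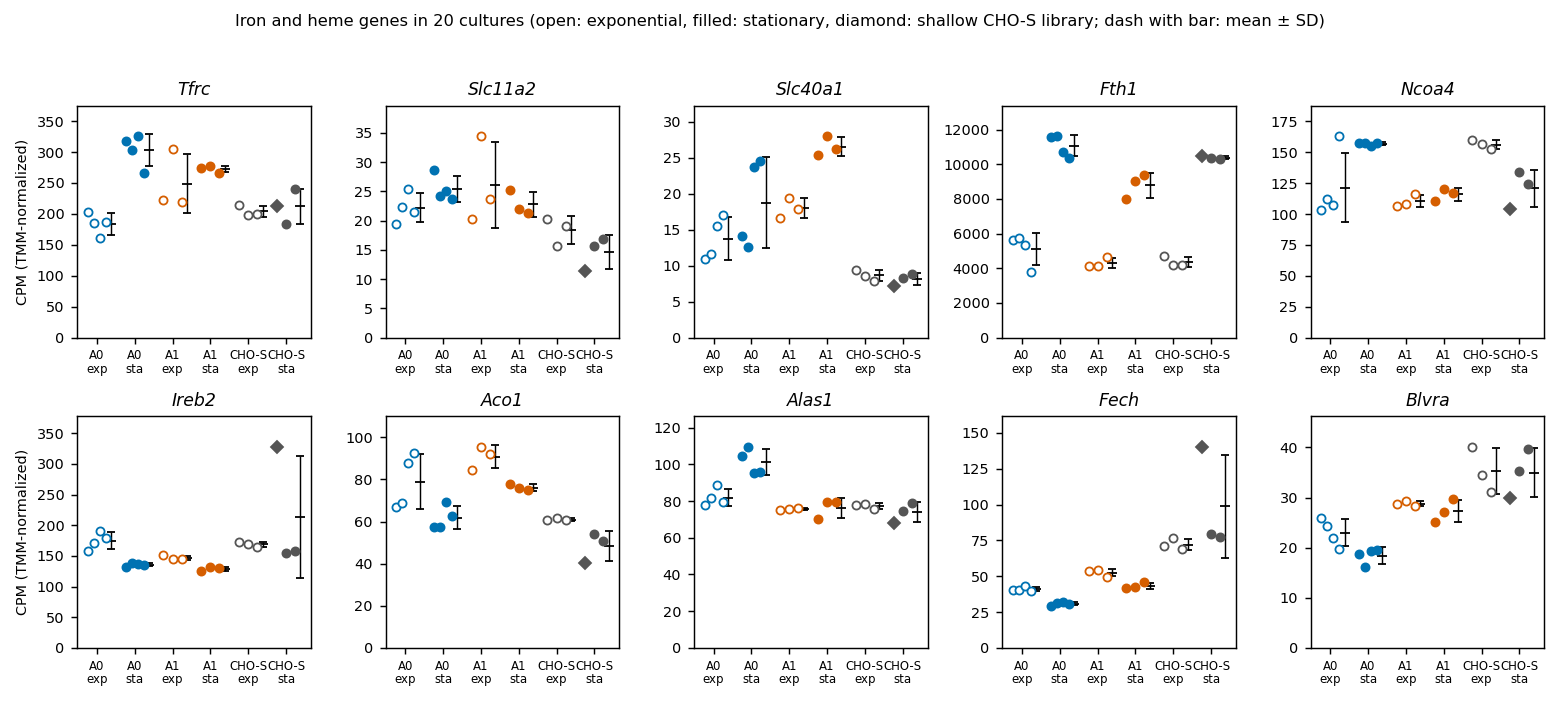
Levels of the 10 genes in the 20 cultures, with CPM on the vertical axes and the 6 groups of line and phase on the horizontal axes; each point is a culture (open, exponential; filled, stationary), the diamond is the shallow stationary CHO-S library, and the dash with its bar is the mean ± SD of 3 or 4 cultures. Fth1 was higher at stationary phase in each line, Slc40a1 was lowest in CHO-S, and the shallow library reached 328 CPM for Ireb2 and 140 CPM for Fech.

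Ncoa4, the receptor that carries ferritin to the lysosome, did not follow ferritin in its phase pattern. In A0 it was at 104, 112, 107 and 163 CPM at exponential phase and at 157, 157, 155 and 158 CPM at stationary phase. The A1 cultures were at 107, 108 and 116 CPM and then at 110, 120 and 117 CPM. The CHO-S cultures were at 160, 157 and 152 CPM and then at 104, 134 and 124 CPM. The 3 lower exponential A0 cultures lay with A1, culture 4 lay above the stationary A0 cultures, and both of its libraries were high (172 and 163 CPM scaled to their own totals). At stationary phase all A0 cultures lay above all A1 and CHO-S cultures. A1 was lower than A0 by a log2 fold change of -0.44 ± 0.07 (SE, edgeR adjusted p = 0.000155), called against either pair of A0 cultures.

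The phase change of Ncoa4 in A0 was 0.36 ± 0.13 (SE, edgeR adjusted p = 0.0337). It lost its call without any of the exponential cultures 1, 2 and 3 or any of the 4 stationary cultures (edgeR adjusted p between 0.0557 and 0.105) and with cultures 3 and 4 alone (0.21), while with cultures 1 and 2 alone it was 0.54 and called (adjusted p = 0.000843). In CHO-S the phase value was -0.36 (edgeR adjusted p = 0.13), and -0.26 and called without the shallow library (adjusted p = 5.48e-06). The A0 and CHO-S phase changes differed by 0.70 ± 0.21 (SE, edgeR adjusted p = 0.0400), and by 0.68 without the shallow library (adjusted p = 0.00984). With all CHO-S cultures this call was lost without any of exponential A0 cultures 1, 2 and 3, stationary A0 cultures 1, 3 and 4 or the exponential CHO-S cultures (0.63 to 0.71, edgeR adjusted p between 0.0629 and 0.094), and with A0 cultures 3 and 4 alone (0.56, adjusted p = 0.26). In A1 the phase value was 0.09 (edgeR adjusted p = 0.27). The A1 and A0 changes were not called different (-0.31, edgeR adjusted p = 0.28). They were called different without exponential A0 culture 4 (-0.48, adjusted p = 0.00294), against A0 cultures 1 and 2 alone (-0.48, adjusted p = 0.000718) and with the cultures of each line blocked by number (-0.33, adjusted p = 0.0466). The A1 and CHO-S changes differed by 0.43 and were not called different (edgeR adjusted p = 0.10), but were without the shallow library (0.34, adjusted p = 0.00111).

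At exponential phase Ncoa4 was lower in A1 than in CHO-S (-0.50 ± 0.05, SE, edgeR adjusted p = 4.03e-09) and in A0 than in CHO-S (-0.35 ± 0.13, adjusted p = 0.0386). The A0 call was lost with any of the A0 cultures 1, 2 and 3 or any CHO-S culture left out (edgeR adjusted p between 0.0764 and 0.117) and with A0 cultures 3 and 4 alone (-0.21, adjusted p = 0.29). At stationary phase the A0 value against CHO-S turned to 0.35 (edgeR adjusted p = 0.0709), or 0.30 and called without the shallow library (adjusted p = 0.00776), and A1 against CHO-S was -0.09 (adjusted p = 0.70), or -0.18 and called without it (adjusted p = 0.0245). From the lowest mean, exponential A1, through stationary A1, stationary CHO-S, exponential A0 and exponential CHO-S to stationary A0, each pair of neighbouring groups overlapped. Without the shallow library stationary CHO-S (mean 129 CPM) came above exponential A0 and was apart from exponential CHO-S.

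The transferrin receptor rose with phase in A0. Tfrc was at 203, 185, 160 and 187 CPM in exponential A0 and at 318, 303, 325 and 267 CPM in stationary A0. In A1 it was at 223, 304 and 219 CPM at exponential phase and at 274, 277 and 266 CPM at stationary phase. In CHO-S it was at 215, 199 and 199 CPM and then at 213, 184 and 241 CPM. All stationary A0 cultures lay above all exponential A0 cultures, whereas the phases overlapped in A1, where exponential culture 2 stood above the stationary cultures, and in CHO-S. The log2 fold change in A0 was 0.71 ± 0.10 (SE, edgeR adjusted p = 3.28e-05), a rise of 1.64 times, called in each pair of cultures taken alone (0.67 and 0.77). The values in A1 (0.15, edgeR adjusted p = 0.14) and CHO-S (0.06, adjusted p = 0.82, or 0.04 without the shallow library) were not called.

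The phase change of Tfrc was smaller in A1 than in A0, by -0.60 ± 0.15 on the log2 scale (SE, edgeR adjusted p = 0.0131). Without exponential A1 culture 2, at 304 CPM, the difference was -0.40 and not called (edgeR adjusted p = 0.097), in a single fit to all 6 groups it was -0.59 and not called (adjusted p = 0.0509), and without that culture the A1 phase change was 0.32 and called (adjusted p = 0.000197). The change was larger in A0 than in CHO-S by 0.64 ± 0.18 (SE, edgeR adjusted p = 0.028), and by 0.70 without the shallow library (adjusted p = 0.00289). With that library in, the call was lost when any of exponential A0 cultures 2 and 3, stationary A0 cultures 1 and 3, the exponential CHO-S cultures or stationary CHO-S culture 2 was left out (edgeR adjusted p between 0.0511 and 0.0826), and with either pair of A0 cultures alone (0.63 and 0.70, adjusted p = 0.0698 and 0.11).

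At exponential phase all A1 cultures had more Tfrc than all A0 cultures, by a log2 fold change of 0.43 ± 0.12 (SE, edgeR adjusted p = 0.0129), or 1.35 times. The call rested on A1 culture 2, without which the value was 0.26 (edgeR adjusted p = 0.14). It was 0.35 and not called against A0 cultures 1 and 2 alone (adjusted p = 0.0506), and 0.51 and called against cultures 3 and 4 (adjusted p = 0.0244). At stationary phase the value was -0.16 (edgeR adjusted p = 0.11), or -0.22 and called without stationary A0 culture 4 (adjusted p = 0.0214), and -0.20 and called against A0 cultures 1 and 2 alone (adjusted p = 0.0124). Against CHO-S, A1 was higher at exponential phase (0.28, edgeR adjusted p = 0.0040), a call lost without A1 culture 2 (0.10, adjusted p = 0.0584) or CHO-S culture 2 (0.26, adjusted p = 0.0538), and in DESeq2 (0.28). A0 was not called different from CHO-S there (-0.14, edgeR adjusted p = 0.22), though its cultures 3 and 4 alone were lower (-0.24, adjusted p = 0.0432), as was A0 with single libraries in place of sums (-0.26, adjusted p = 0.0120). At stationary phase A0 was higher than CHO-S by 0.50 ± 0.15 (SE, edgeR adjusted p = 0.0264), and by 0.53 without the shallow library (adjusted p = 0.00181). With it, the call was lost without stationary A0 culture 1, 2 or 3 or CHO-S culture 2 (adjusted p between 0.0645 and 0.0734), and with either pair of A0 cultures alone (0.54 and 0.45). A1 against CHO-S was 0.34 at stationary phase (edgeR adjusted p = 0.12), and 0.35 and called without the shallow library (adjusted p = 1.41e-05). From the lowest group mean, exponential A0 (184 ± 17.6 CPM, SD, n = 4), through exponential CHO-S, stationary CHO-S, exponential A1 and stationary A1 to the highest, stationary A0 (303 ± 25.9 CPM, n = 4), each pair of neighbouring groups overlapped.

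Slc11a2, the ferrous iron transporter, ranged from 11.4 CPM in the shallow CHO-S library to 34.4 CPM in exponential A1 culture 2. That A1 culture, the same that stood high for Tfrc, lay above the 20.3 and 23.7 CPM of the other exponential A1 cultures. Neither A1 against A0 comparison was called, with log2 fold changes of 0.23 at exponential phase (edgeR adjusted p = 0.30) and -0.17 at stationary phase (adjusted p = 0.24). Without exponential A1 culture 2 the exponential value turned to -0.0171 (edgeR adjusted p = 0.94). The line difference was with CHO-S. At stationary phase A0 was at 23.7 to 28.6 CPM, A1 at 21.2 to 25.2 CPM and CHO-S at 11.4 to 16.8 CPM, so that A0 and A1 overlapped each other and neither overlapped CHO-S. A0 was higher than CHO-S by 0.70 ± 0.16 (SE, edgeR adjusted p = 0.00599), and by 0.67 without the shallow library (adjusted p = 0.000631). A1 was higher by 0.53 ± 0.15 (SE, edgeR adjusted p = 0.0287), and by 0.46 without the shallow library (adjusted p = 0.000903). The A1 call was lost when any other single culture of that comparison was left out (adjusted p between 0.0843 and 0.122). At exponential phase A1 was higher by 0.49 (edgeR adjusted p = 0.0032), a call lost without A1 culture 2 (0.24, adjusted p = 0.0595) or CHO-S culture 2 (0.39, adjusted p = 0.0595), and in DESeq2 (0.50). A0 was not called different (0.28, edgeR adjusted p = 0.0759), but was called higher without its culture 1 (0.33, adjusted p = 0.0415). The phase values were not called in any line, except in A1 without exponential culture 1 (-0.34, edgeR adjusted p = 0.0389). From stationary CHO-S through exponential CHO-S, exponential A0, stationary A1 and stationary A0 to exponential A1, each pair of neighbouring groups overlapped.

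The ferroportin gene was lowest in CHO-S. Slc40a1 was at 9.43, 8.61 and 7.90 CPM in exponential CHO-S and at 7.22, 8.35 and 8.81 CPM in stationary CHO-S. In A0 it was at 10.9, 11.7, 15.5 and 16.98 CPM at exponential phase and at 14.1, 12.6, 23.8 and 24.6 CPM at stationary phase. A1 had 16.7, 19.5 and 17.9 CPM and then 25.5, 28.0 and 26.2 CPM. All A0 and A1 cultures lay above all CHO-S cultures. Within A0, cultures 1 and 2 lay below cultures 3 and 4 at both phases. In the order of means, CHO-S was lowest at stationary (8.13 ± 0.815 CPM, SD, n = 3) and exponential phase (8.64 ± 0.767 CPM, n = 3), which overlapped; exponential A0 (13.8 ± 2.94 CPM, n = 4), exponential A1 (18.02 ± 1.39 CPM, n = 3) and stationary A0 (18.8 ± 6.28 CPM, n = 4) overlapped as neighbours, and stationary A1 (26.6 ± 1.30 CPM, n = 3) was above the rest.

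At exponential phase A1 exceeded CHO-S in Slc40a1 by 1.05 ± 0.11 on the log2 scale (SE, edgeR adjusted p = 1.28e-08) and by 1.64 ± 0.14 at stationary phase (adjusted p = 9.15e-05), or 1.62 without the shallow library (adjusted p = 7.56e-19). These are differences of 2.07 and 3.12 times. A0 exceeded CHO-S by 0.68 ± 0.17 at exponential phase (SE, edgeR adjusted p = 0.0034) and by 1.14 ± 0.28 at stationary phase (adjusted p = 0.00758), or 1.16 without the shallow library (adjusted p = 0.00391). These calls held for either pair of A0 cultures, with values of 0.38 and 0.91 at exponential phase and 0.67 and 1.49 at stationary phase for cultures 1 and 2 and for cultures 3 and 4.

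Slc40a1 rose with phase in A1, by 0.58 ± 0.10 (SE, edgeR adjusted p = 1.61e-05). In A0 the phase value was 0.44 and not called (edgeR adjusted p = 0.10), or 0.58 and called in cultures 3 and 4 alone (adjusted p = 0.015) and 0.23 and not called in cultures 1 and 2 alone (adjusted p = 0.17). With the A0 cultures paired by number it was 0.41 and called (edgeR adjusted p = 0.00182). It was also called without stationary A0 culture 1 (0.56, edgeR adjusted p = 0.0454) or 2 (0.59, adjusted p = 0.0267). In CHO-S it was -0.04 (edgeR adjusted p = 0.88), or -0.02 without the shallow library. The A1 change was larger than the CHO-S change by 0.61 ± 0.16 (SE, edgeR adjusted p = 0.0333), and by 0.58 without the shallow library (adjusted p = 0.00837). The call was lost with any of exponential A1 cultures 1 and 3, stationary A1 cultures 2 and 3, exponential CHO-S cultures 1 and 2 or stationary CHO-S cultures 2 and 3 left out (adjusted p between 0.0596 and 0.13). A1 against A0 was not called at exponential (0.39, edgeR adjusted p = 0.0747) or stationary phase (0.48, adjusted p = 0.0700), though at stationary phase no A1 culture overlapped A0. Against cultures 1 and 2 alone A1 was higher at both phases (0.67 and 0.98, edgeR adjusted p = 0.000799 and 5.22e-08), and against cultures 3 and 4 alone at neither (0.14 and 0.14). It was also called without exponential A0 culture 4 (0.51, adjusted p = 0.0169) and without stationary A0 culture 3 (0.62, adjusted p = 0.0206) or 4 (0.64, adjusted p = 0.0122). The stationary value was also called in a single fit to all 6 groups (0.50, edgeR adjusted p = 0.0498) and without a filter (0.48, adjusted p = 0.0408).

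The genes of the iron regulatory proteins fell with phase in A0 and A1, though in a single fit to all 6 groups only the A0 fall of Aco1 kept its call. Ireb2 was at 158, 172, 191 and 179 CPM in exponential A0 and at 132, 139, 137 and 135 CPM in stationary A0. A1 had 151, 146 and 145 CPM and then 126, 131 and 130 CPM. CHO-S had 173, 169 and 164 CPM and then 328, 154 and 159 CPM. The stationary cultures of A0 and of A1 lay below the exponential cultures of their own line, and in CHO-S the shallow library was far above every other culture of the series. The log2 fold change with phase was -0.38 ± 0.09 in A0 (SE, edgeR adjusted p = 0.00314) and -0.17 ± 0.06 in A1 (adjusted p = 0.0222), the latter lost without exponential A1 culture 1 (-0.15, adjusted p = 0.10) or stationary A1 culture 1 (-0.15, adjusted p = 0.0529). In CHO-S it was 0.33 (edgeR adjusted p = 0.51), and -0.11 without the shallow library (adjusted p = 0.0585).

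Exponential A1 had less Ireb2 than all exponential A0 and CHO-S cultures. The difference was called against CHO-S (-0.20 ± 0.05, SE, edgeR adjusted p = 0.000518) and lay at the threshold against A0 (-0.25 ± 0.09, SE, adjusted p = 0.0501). It was called against A0 cultures 1 and 2 alone (-0.17, edgeR adjusted p = 0.0498), against cultures 3 and 4 alone (-0.33, adjusted p = 0.00978) and without exponential A0 culture 1 (-0.29, adjusted p = 0.0201) or 4 (-0.24, adjusted p = 0.043). At stationary phase A1 against A0 was -0.09 (edgeR adjusted p = 0.35). Against CHO-S at stationary phase, A1 was at -0.73 (edgeR adjusted p = 0.0867) with the shallow library and at -0.30 without it (adjusted p = 9.58e-05), and A0 at -0.65 (adjusted p = 0.0619) and -0.18 (adjusted p = 0.0601). The A0 value was called without stationary CHO-S culture 2 (-0.76, adjusted p = 0.045) or 3 (-0.82, adjusted p = 0.0396), which leaves the shallow library with a single other culture. Without stationary CHO-S culture 2 the A0 and CHO-S phase changes of Ireb2 were also called different (-0.84, adjusted p = 0.0465), against -0.67 (adjusted p = 0.11) with all cultures. Without the shallow library this difference was -0.22 and not called (edgeR adjusted p = 0.24). In the order of means, stationary A1, stationary A0 and exponential A1 followed each other without overlap, and above them exponential CHO-S, exponential A0 and stationary CHO-S overlapped as neighbours. Stationary CHO-S is highest through the shallow library alone; cultures 2 and 3 (mean 156 CPM) lay between exponential A1 and exponential CHO-S, apart from each.

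Aco1, which encodes the regulatory protein that doubles as cytosolic aconitase, was at 66.9, 68.6, 87.9 and 92.5 CPM in exponential A0 and at 57.6, 57.5, 69.1 and 62.7 CPM in stationary A0. The A1 cultures had 84.7, 95.5 and 91.9 CPM and then 77.8, 75.8 and 74.8 CPM. The CHO-S cultures had 60.8, 61.5 and 60.5 CPM and then 40.3, 53.9 and 50.8 CPM. As for Slc40a1, A0 cultures 3 and 4 lay above cultures 1 and 2 at both phases, and cultures 3 and 4 lay within reach of A1 at exponential phase. All A1 cultures lay above all CHO-S cultures, and above all A0 cultures at stationary phase. Aco1 fell with phase in A1 (-0.24 ± 0.06, SE, edgeR adjusted p = 0.00458) and in A0 (-0.37 ± 0.12, SE, adjusted p = 0.0219). The A0 call was kept in each pair of cultures alone (-0.24 and -0.45) but lost without exponential culture 3 or 4 or stationary culture 1 or 2 (adjusted p between 0.0613 and 0.0755). In CHO-S the phase value was -0.30 (edgeR adjusted p = 0.21), and -0.21 and called without the shallow library (adjusted p = 0.00562).

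At stationary phase Aco1 was higher in A1 than in A0 (0.29 ± 0.08, SE, edgeR adjusted p = 0.0145), a call lost without A1 culture 1 (0.28, adjusted p = 0.0552). At exponential phase the value was 0.20 (edgeR adjusted p = 0.24), made of 0.41 against A0 cultures 1 and 2 alone (adjusted p = 0.00095) and 0.00 against cultures 3 and 4 alone (adjusted p = 0.98). Against CHO-S, A1 was higher at exponential phase (0.57 ± 0.06, SE, edgeR adjusted p = 6.10e-09) and at stationary phase (0.61 ± 0.16, SE, adjusted p = 0.0166). The stationary value was 0.51 without the shallow library (adjusted p = 6.38e-08). With that library in, its call was lost with any A1 culture or CHO-S culture 3 left out (0.61 to 0.62, edgeR adjusted p between 0.0614 and 0.0683). A0 was higher than CHO-S at exponential phase (0.38 ± 0.12, SE, edgeR adjusted p = 0.0128), a call lost without any of the CHO-S cultures (adjusted p between 0.0534 and 0.0573). At stationary phase it was 0.31 (edgeR adjusted p = 0.13), or 0.25 without the shallow library (adjusted p = 0.0608). Stationary CHO-S had the lowest mean and was apart from exponential CHO-S, which overlapped stationary A0; stationary A1 was apart from these, and overlapped exponential A0, as that group did exponential A1.

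Fech, which inserts iron into protoporphyrin, was at 40.8, 40.2, 43.4 and 39.8 CPM in exponential A0 and at 29.6, 31.1, 32.2 and 30.9 CPM in stationary A0. For A1 the values were 54.0, 54.2 and 49.5 CPM and then 42.1, 42.5 and 45.7 CPM. For CHO-S they were 71.2, 76.4 and 68.7 CPM and then 140, 79.3 and 77.1 CPM. At each phase every A0 culture lay below every A1 culture and every A1 culture below every CHO-S culture, and the shallow library was the highest. It held 136 counts of Fech, against 1082 and 569 in stationary CHO-S cultures 2 and 3. In the order of means, stationary A0 (30.9 ± 1.07 CPM, SD, n = 4) was lowest; exponential A0 (41.0 ± 1.60 CPM, n = 4) and stationary A1 (43.4 ± 1.98 CPM, n = 3) overlapped; exponential A1 (52.6 ± 2.67 CPM, n = 3), exponential CHO-S (72.1 ± 3.89 CPM, n = 3) and stationary CHO-S (98.9 ± 35.9 CPM, n = 3; 78.2 CPM for cultures 2 and 3) followed without overlap.

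A1 had more Fech than A0 at exponential phase (0.35 ± 0.09, SE, edgeR adjusted p = 0.00807) and at stationary phase (0.48 ± 0.08, SE, adjusted p = 0.000554), or 1.28 and 1.39 times. Either pair of A0 cultures alone gave the call at both phases. At exponential phase, leaving out A1 culture 1 (0.33, edgeR adjusted p = 0.0522) or 2 (0.33, adjusted p = 0.0515) ended the call. Compared with CHO-S, A0 was lower by -0.80 ± 0.08 at exponential phase (SE, edgeR adjusted p = 1.82e-06) and by -1.65 ± 0.21 at stationary phase (adjusted p = 0.000162), the latter -1.32 without the shallow library (adjusted p = 1.55e-07). A1 was lower than CHO-S by -0.46 ± 0.06 at exponential phase (SE, edgeR adjusted p = 5.93e-07) and by -1.17 ± 0.25 at stationary phase (adjusted p = 0.00742), the latter -0.87 without the shallow library (adjusted p = 1.47e-16).

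Fech fell with phase in A0 (-0.42 ± 0.09, SE, edgeR adjusted p = 0.0017) and in A1 (-0.25 ± 0.07, SE, adjusted p = 0.00792). In CHO-S the value was 0.42 (edgeR adjusted p = 0.30), and 0.12 without the shallow library (adjusted p = 0.078). The A0 and CHO-S phase changes differed by -0.81 ± 0.21 (SE, edgeR adjusted p = 0.0183), and by -0.49 without the shallow library (adjusted p = 0.00678). With it, the call was lost without stationary A0 culture 2 or exponential CHO-S culture 1 or 3 (adjusted p between 0.0514 and 0.0584), and with either pair of A0 cultures alone (-0.78 and -0.80, adjusted p = 0.15 and 0.20). For A1 and CHO-S the difference was -0.62 (edgeR adjusted p = 0.14), and -0.40 and called without the shallow library (adjusted p = 0.00127). The A1 and A0 phase changes were not called different (0.12, edgeR adjusted p = 0.61).

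Alas1, the enzyme that starts heme synthesis outside the erythroid lineage, was at 77.8, 81.6, 88.7 and 79.6 CPM in exponential A0 and at 104, 110, 95.3 and 95.6 CPM in stationary A0. For A1 the values were 75.2, 75.9 and 76.2 CPM and then 70.1, 79.5 and 79.6 CPM, and in CHO-S it lay between 68.1 and 79.1 CPM at both phases. The stationary A0 cultures lay above all others, and the other groups, from stationary CHO-S through exponential A1, stationary A1 and exponential CHO-S to exponential A0, overlapped as neighbours; without the shallow library stationary CHO-S (mean 76.9 CPM) came between stationary A1 and exponential CHO-S and overlapped both. Alas1 rose with phase in A0 (0.29 ± 0.09, SE, edgeR adjusted p = 0.0177), a call lost without stationary culture 2 (0.25, adjusted p = 0.0644) and in cultures 3 and 4 alone (0.18, adjusted p = 0.19). The phase values of A1 (0.04, edgeR adjusted p = 0.73) and CHO-S (-0.05, adjusted p = 0.84, or -0.01 without the shallow library) were not called. The A1 and A0 phase changes differed by -0.30 and were not called different (edgeR adjusted p = 0.13), but were against A0 cultures 1 and 2 alone (-0.42, adjusted p = 0.00384) and with single A0 libraries (-0.40, adjusted p = 0.0229). At stationary phase A1 was lower than A0 by -0.41 ± 0.08 (SE, edgeR adjusted p = 0.00141), called against either pair of A0 cultures (-0.50 and -0.32). A0 was higher than CHO-S by 0.43 ± 0.14 (SE, edgeR adjusted p = 0.0356), or 0.41 without the shallow library (adjusted p = 0.00237); with it, the call was lost when any other culture was left out (adjusted p between 0.058 and 0.099) and with either pair of A0 cultures alone (0.52 and 0.33). No Alas1 difference between lines was called at exponential phase.

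Blvra, the reductase at the end of heme breakdown, was at 25.8, 24.4, 22.02 and 19.8 CPM in exponential A0 and at 18.7, 16.1, 19.3 and 19.6 CPM in stationary A0. In A1 it had 28.7, 29.3 and 28.4 CPM and then 25.2, 27.2 and 29.6 CPM. In CHO-S it had 40.2, 34.4 and 31.1 CPM and then 29.9, 35.2 and 39.7 CPM. A0 lay below A1 and A1 below CHO-S at each phase, without overlap. At stationary phase A1 was higher than A0 by 0.56 ± 0.11 (SE, edgeR adjusted p = 0.000967), or 1.48 times, called against either pair of A0 cultures (0.65 and 0.49). At exponential phase the value was 0.32 ± 0.11 (SE, edgeR adjusted p = 0.045), and the call was lost without any of the A0 cultures 2, 3 and 4 or any A1 culture (adjusted p between 0.0584 and 0.15), in single A0 libraries (0.31, adjusted p = 0.0673) and against A0 cultures 1 and 2 alone (0.19, adjusted p = 0.0729), while against cultures 3 and 4 it was 0.46 and called (adjusted p = 0.00864). A0 was lower than CHO-S by -0.60 ± 0.12 at exponential phase (SE, edgeR adjusted p = 0.000646) and by -0.97 ± 0.15 at stationary phase (adjusted p = 0.000495), or -1.001 without the shallow library (adjusted p = 1.45e-05). A1 was lower than CHO-S by -0.30 at exponential phase (edgeR adjusted p = 0.0037), a call lost without CHO-S culture 1 (-0.19, adjusted p = 0.0575). At stationary phase it was at -0.40 (edgeR adjusted p = 0.0791), or -0.46 and called without the shallow library (adjusted p = 6.28e-05). Blvra fell with phase in A0 (-0.33 ± 0.12, SE, edgeR adjusted p = 0.0362), a call lost without exponential culture 1 or 2 or stationary culture 1, 2 or 3 (adjusted p between 0.0544 and 0.12) and in cultures 3 and 4 alone (-0.10, adjusted p = 0.57). It was also lost with the stricter filter, with other size factors and with single A0 libraries (edgeR adjusted p = 0.0527, 0.0540 and 0.0514). It was not called in A1 (-0.05, edgeR adjusted p = 0.75) or CHO-S (0.03, adjusted p = 0.93, or 0.07 without the shallow library), and the A1 and A0 phase changes were called different against A0 cultures 1 and 2 alone (0.46, adjusted p = 0.0188), though not with all cultures (0.24, adjusted p = 0.40). Stationary A0 had the lowest mean and was apart; exponential A0, stationary A1 and exponential A1 overlapped as neighbours, and the CHO-S groups overlapped each other above them. Heme oxygenase Hmox1, which acts just before Blvra, was at 2352 to 4395 CPM in stationary A0 against 1060 to 1181 CPM in stationary A1, a log2 fold change of -1.55 ± 0.17 (SE, edgeR adjusted p = 1.37e-05), opposite in sign to that of Blvra at this phase. At exponential phase the Hmox1 value was 0.22 and not called (edgeR adjusted p = 0.10), with all A1 cultures (1011 to 1078 CPM) above all A0 cultures (784 to 977 CPM).

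**Figure D2:**
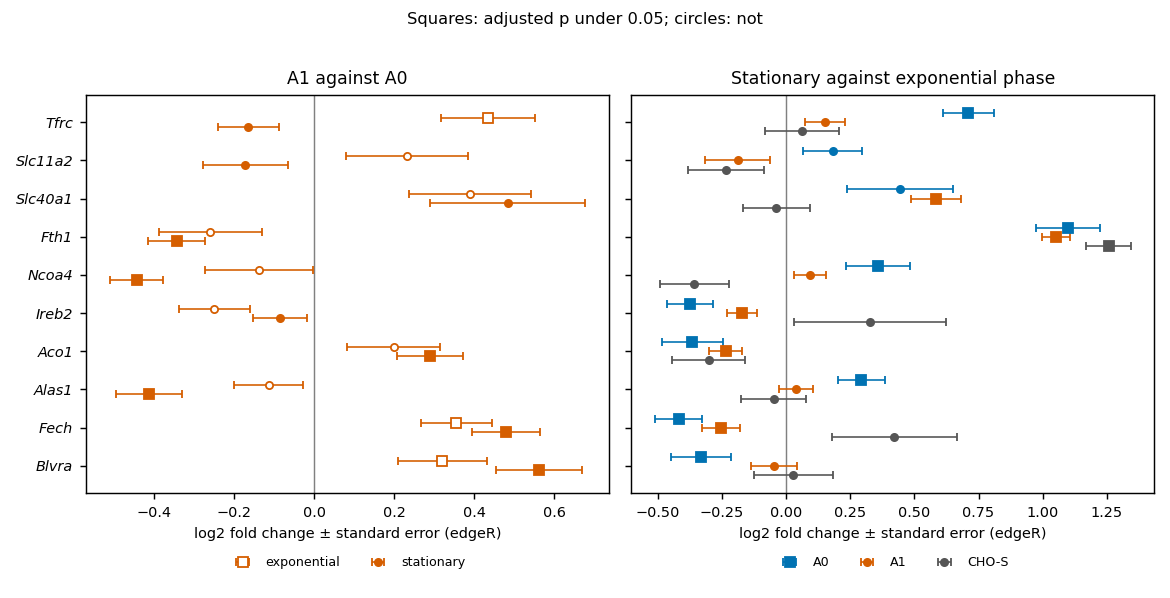
Log2 fold changes (horizontal axis) with standard errors from edgeR for the 10 genes (vertical axis), for A1 against A0 at each phase on the left and for stationary against exponential phase in each line on the right; squares mark an adjusted p under 0.05, circles the others. Fth1 lies at 1.05 to 1.26 for phase in each line, and Tfrc lies at 0.43 at exponential and at -0.16 at stationary phase for A1 against A0.

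The counts of called members were set against all genes tested. In A1 against A0, 3 of 10 members were called at exponential phase, all higher (25.9% of 19946 genes), and 6 of 10 at stationary phase, 3 higher and 3 lower (33.7% of 19293 genes). These shares hold both directions. Over all genes 12% were called higher and 13.8% lower at exponential phase, and 16% and 17.7% at stationary phase. The members' median absolute log2 fold change was 0.25 and 0.38, and that of all genes 0.38 and 0.41. In A0 against CHO-S, 5 of 10 were called at exponential phase (49.5% of all genes) and 6 of 10 at stationary phase (40% of all genes), or 7 of 10 without the shallow library (51.8%). In A1 against CHO-S, 8 of 10 were called at exponential phase (57.2% of all genes) and 4 of 10 at stationary phase (34.8%), or 9 of 10 without the shallow library (57.4%). The comparisons with CHO-S share its cultures. The median of all genes in A0 against CHO-S at exponential phase was 0.14 on the log2 scale, so the A0 values given above for that phase lie that much lower relative to the typical gene.

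Between phases, 8 of 10 members were called in A0, 4 higher and 4 lower (37.7% of all genes), 5 of 10 in A1, 2 higher and 3 lower (33.4%), and 1 of 10 in CHO-S (13.3%), or 3 of 10 without the shallow library (47.7%). Over all genes 17.7% were called higher and 20.1% lower in A0, and 15.6% and 17.8% in A1. The members' median absolute log2 fold change was 0.37 in A0, 0.18 in A1 and 0.27 in CHO-S, and that of all genes 0.50, 0.31 and 0.43. Of the differences in phase change, 1 of 10 was called between A1 and A0 (8.94% of all genes), 3 of 10 between A0 and CHO-S (10.3%, and 3 of 10 without the shallow library against 17.2%), and 1 of 10 between A1 and CHO-S (7.6%, and 4 of 10 without it against 25.4%). In a single fit to all 6 groups, the A1 phase calls of Slc40a1 (edgeR adjusted p = 0.0661), Ireb2 (adjusted p = 0.55), Aco1 (adjusted p = 0.22) and Fech (adjusted p = 0.24) were lost, as were the A0 phase call of Ireb2 (adjusted p = 0.0557), the stationary A1 against A0 call of Aco1 (adjusted p = 0.0646), the exponential A1 against A0 calls of Fech (adjusted p = 0.0505) and Blvra (adjusted p = 0.0511), the exponential A1 against CHO-S calls of Tfrc (adjusted p = 0.0991), Ireb2 (adjusted p = 0.42) and Blvra (adjusted p = 0.0730), and the A1 and CHO-S difference in phase change of Slc40a1 (adjusted p = 0.34). With 10 members, a share within a few genes of the background is not a result about the list.

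Further genes of the same pathways were counted from lists of 33 genes of iron transport and storage, 30 of iron-sulfur cluster assembly and 32 of heme synthesis, transport and breakdown, of which 27, 25 and 29 were in the table. In exponential A1 against A0, 4 of 26 tested transport genes were called (1 higher, 3 lower), 7 of 25 iron-sulfur genes (4 higher, 3 lower) and 10 of 26 heme genes (9 higher, 1 lower), where 25.9% of all genes were called. Over all genes 12% were called higher and 13.8% lower at this phase. The median log2 fold changes of these lists were 0.03, 0.05 and 0.14, beside -0.04 over all genes. At stationary phase the counts were 6 of 26 (2 higher, 4 lower), 10 of 25 (1 higher, 9 lower) and 11 of 27 (4 higher, 7 lower), where 33.7% of all genes were called, with medians of -0.03, -0.15 and -0.05 beside 0.00 over all genes. Over all genes 16% were called higher and 17.7% lower at this phase.

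At exponential phase the called list genes with the largest rises in A1 were the heme transporter Slc48a1 (0.84), Slc46a1, which carries folate and heme (0.73), and uroporphyrinogen decarboxylase Urod (0.72), and those with the largest falls were the iron-sulfur scaffold Iscu (-0.71), the ferroxidase Hephl1 (-0.62) and coproporphyrinogen oxidase Cpox (-0.43). At stationary phase the rises were of Urod (0.87), the mitochondrial transporter Abcb10 (0.58) and Alad (0.51), the second enzyme of heme synthesis, and the falls were of the protease Tmprss6 (-2.30), Hmox1 and Cpox (-0.73). The A1 and A0 cultures did not overlap for any of these genes. The genes were picked as called, with the largest changes, in these same cultures, so the lack of overlap is no further evidence. Urod and Cpox, which act one after the other in heme synthesis, were called in opposite directions at both phases.

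The genes whose pattern over the 20 cultures was most like that of a member, among 10588 genes with a mean of at least 5 CPM, were taken by Pearson's r of log2(CPM + 1), as a description over cultures that share 6 groups. For Fth1 these were Prune2 (0.94), Iqcc (0.94) and Cd68 (0.92), for Tfrc Neurl3 (0.89), Cxcl3 (0.88) and Plekha3 (0.88), and for Slc40a1 LOC100761504 (0.94), Pkp4 (0.94) and Mfsd14a (0.93). Cd68, a lysosomal protein gene that also marks macrophages, was the most abundant of 6 leukocyte markers, all in the table, and was at 2.29 to 3.28 CPM in exponential and 16.9 to 65.3 CPM in stationary A0, 2.78 to 3.20 and 8.26 to 11.9 CPM in A1, and 3.59 to 3.80 and 29.0 to 39.2 CPM in CHO-S. Csf1r, another macrophage marker, was at 0.410 to 0.999 CPM in exponential and 1.65 to 4.75 CPM in stationary A0, 0.610 to 1.11 and 0.916 to 1.49 CPM in A1, and 0.585 to 0.759 and 0 to 0.660 CPM in CHO-S. Ptprc, which defines leukocytes, had 0 to 2 counts in any culture, Adgre1 0 to 1, and Itgam and Cd14 0 to 5. Bulk RNA does not tell fewer cells of a kind from less RNA per cell, here or for any level above.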

How the data were processed

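RNA was sequenced from stranded TruSeq libraries. The authors aligned reads with STAR 2.5.4b and deposited counts per gene from HTSeq 0.7.2, without normalization. The strand setting is not given in the sources used here, so reads of overlapping or antisense genes cannot be told apart. The 5 HTSeq summary lines stayed out of library sizes and tests (in the shallow CHO-S library, 32.8% of reads fell outside genes and 3.06% were not aligned). The table named the genes by symbol, and no coordinates were used.

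Libraries of the same A0 culture at exponential phase differed by more than sampling noise (chi-square per degree of freedom 27.1, 6.02, 3.14 and 2.81 for cultures 1 to 4), and over the 10 members the ratio of the second library to the first lay between 0.814 and 1.24. They share a culture and were summed. The second library was the higher in each of cultures 1 to 4 for Tfrc (1.03 to 1.22 times) and Alas1 (1.06 to 1.18 times). No other member lay on the same side in every culture. With the first libraries alone, the A0 phase change was 0.83 for Tfrc and 0.41 for Alas1, against 0.71 and 0.29 with the sums. A gene entered the test if 2 or more cultures had a count of it and its variance was above 0; each was tested per comparison with edgeR 4.0.16 (R 4.3.3; TMM, quasi-likelihood F-test, two-sided, Benjamini-Hochberg over all genes tested, threshold 0.05), fitted to the groups compared. Differences in phase change were interaction terms. DESeq2 1.42.0, other size factors, other filters, a replicate block, all 6 groups in 1 fit, other choices of A0 libraries or cultures, and leaving out each culture were the alternatives. Python 3.11.15 with pandas 2.3.3, numpy 2.4.6 and matplotlib 3.10.9 did the rest.

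Culture numbers were checked for pairing: deviations from group means correlated in each of the 4 same-numbered pairs of stationary and exponential A0 cultures (r from 0.19 to 0.44, all above the bar of 0.1). The tests reported leave this pairing out, and a value with it is given where it changes a call. Cultures 3 and 4 are not told apart by this: stationary culture 4 correlated more with exponential culture 3 (0.33) than with its own number, and all correlations between the sets 1, 2 and 3, 4 were negative. Deviations from a mean of 4 cultures cancel out, so positive correlations within the sets lead to negative ones between them. In the other 8 two-group comparisons not every pair passed 0.1. The cultures are separate in the labels only by number, so p-values refer to these cultures only. The edgeR test also draws on the spread of all genes tested, so a p-value does not measure 1 gene's spread between cultures alone. For Fth1 between CHO-S phases, the edgeR adjusted p was 1.86e-49 without the shallow library and 0.0512 without exponential culture 2. The log2 fold changes were 1.25 and 1.24. The members and lists were chosen with earlier results of these data known. Beyond the members, named genes were Hmox1, Ftl, up to 3 called list genes with the largest rise and fall in each A1 against A0 comparison (mean of at least 1 CPM), and the 3 genes most like Tfrc, Fth1 and Slc40a1. Hepatocyte markers (5 of 6 in the table, mostly Hnf4a) summed to means of 7.97 CPM in exponential and 17.7 CPM in stationary A0. The means were 5.33 and 8.87 CPM in A1, and 3.25 and 5.56 CPM in CHO-S. The stationary CHO-S cultures ranged from 1.03 to 7.91 CPM, with the shallow library the lowest. Their overlap with the exponential cultures (2.76 to 3.50 CPM) rests on that library, which also lowers their mean.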

Additional observations from a re-analysis of the deposited data

Results flagged for a closer look

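In exponential A0 the gap between the highest culture of Ncoa4, number 4, and the next took 0.858 of the whole range, and in stationary A0 the gap below the lowest culture took 0.878 of a range so narrow that the gap is within the counting noise of a culture. Of the 22 groups of 4 cultures tested, chance flags about 1 in 20.

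The phase change differed between lines for 5 results from edgeR's interaction test. Tfrc changed less with phase in A1 than in A0 (-0.60 on the log2 scale) and more in A0 than in CHO-S (0.64). Ncoa4 differed between A0 and CHO-S by 0.70 and Fech by -0.81. Slc40a1 differed between A1 and CHO-S by 0.61. The 3 differences with CHO-S in A0 and that in A1 share the shallow stationary library, and each was called without it, with Fech then at -0.49. All 5 calls were lost with some other single culture left out, such as Tfrc in A1 against A0 without exponential A1 culture 2 (-0.40). In the other lost calls the values ranged from -0.80 to -0.77 for Fech and from 0.63 to 0.71 for Ncoa4. They ranged from 0.58 to 0.66 for Tfrc in A0 against CHO-S and from 0.55 to 0.66 for Slc40a1.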

How the results depend on the processing

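Of 51 called member values, 21 kept their call under every alternative run and 0 reversed their direction. Over 1149 alternative values of 71 member results, 975 kept direction and side of the threshold, 133 lost and 31 gained a call, and 10 reversed, all of them uncalled in both fits.

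These 71 are all members in A1 against A0 and in the A1 and A0 interaction, and the called values elsewhere; uncalled values elsewhere, such as Ireb2 between CHO-S phases, were not counted and some change sign. The reversed values were, for A1 against A0 at exponential phase, Ncoa4 at 0.0286 with A0 cultures 1 and 2 alone, 0.0364 with the replicate block and 0.0367 without A0 culture 4 (single cultures left out, -0.2051 to 0.0367), and Slc11a2 at -0.0171 without A1 culture 2 (-0.0171 to 0.3823). For the A1 and A0 phase interaction they were Aco1 at -0.0302 with A0 cultures 1 and 2 alone, Slc40a1 at -0.0108 with cultures 3 and 4 alone and from -0.0493 to 0.2523 with single cultures left out, and Fth1 at 0.037 without exponential A0 culture 4.

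Members called moved as follows, and the cause was not tested. With 6 groups in 1 fit they were 1 for exponential A1 against A0, 5 for exponential and 7 for stationary A1 against CHO-S, 1 for the A1 phases (2470 genes), 0 for the A1 and A0 interaction (973 genes) and 0 for the A1 and CHO-S interaction, and 4107 genes were called between CHO-S phases. With A0 cultures 1 and 2 alone they were 5 for exponential A1 against A0, 4 for the A1 and A0 interaction (4588 genes) and 1 for A0 and CHO-S. With cultures 3 and 4 alone they were 0 for A0 and CHO-S (1093 genes). With single A0 libraries they were 2 for the A1 and A0 interaction, and DESeq2 gave 2 for A1 and CHO-S.

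Replicate numbers paired only the A0 phases, where the block added the call of Slc40a1 (9 members) and changed no other. The A1 and A0 interaction holds these pairs too, and there the replicate block added the call of Ncoa4. In the comparisons between lines, A1 and CHO-S phases the cultures share only a number. With the replicate block members called were 6 for exponential A1 against A0, 3 for stationary A0 (5043 genes) and 2 for stationary A1 against CHO-S, 2 for the A1 and A0 interaction (3434 genes) and 0 for A1 and CHO-S (518 genes), with 350 genes between CHO-S phases.

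Leaving out single cultures, genes called ranged from 3160 to 6015 and members from 0 to 5 for exponential A1 against A0, members from 3 to 6 for exponential A0 against CHO-S, genes from 4051 to 10452 and members from 2 to 9 for stationary A1 against CHO-S, members from 5 to 7 between A0 phases, and genes from 0 to 8268 and members from 0 to 3 between CHO-S phases. The 0 arose in edgeR without exponential CHO-S culture 2, where 3472 genes had an unadjusted p under 0.05; DESeq2 with all cultures called 2727. For the interactions, genes ranged from 1003 to 2653 (members 0 to 2) for A1 and A0, from 1375 to 3586 (0 to 3) for A0 and CHO-S, and from 783 to 4989 (0 to 4) for A1 and CHO-S. In the comparisons that hold stationary CHO-S, the highest of these counts came without the shallow library. The median over all genes was -0.15 in DESeq2 and -0.03 in edgeR for the A0 and CHO-S interaction, and -0.11 and 0.03 for that of A1 and CHO-S.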
